A study of Mus musculus with 8 samples.

Results

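The RNA of mouse sperm was set against the RNA of the epididymis, the duct in which sperm mature and are stored. All 8 arrays of the series entered the comparison: 6 of sperm and 2 of epididymal tissue, each chosen by its labelled tissue. The mice were of the C57/Bl6 strain. Of the sperm arrays, 1 was from caloric restriction, 2 from low protein and 3 from control diet males. Of the epididymis arrays, 1 was from low protein and 1 from control diet males. Control and low protein males were kept on their diet to an age of 9 to 12 weeks, while the labels leave the age of the calorically restricted males unstated. Sperm were released over 30 minutes at 37 C from the punctured cauda, the last stretch of the epididymis. Per the labels, only preparations above 99.5% purity under the microscope were used, and preparations with detectable Actb or Myh11 in qRT-PCR were rejected. The sources used here do not say which stretch of the epididymis the tissue arrays hold, or whether sperm had been flushed from its duct.

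Sperm form in the testis. Round spermatids, the haploid cells left after meiosis, transcribe the genes of the tail, the acrosome and the condensed nucleus, and then replace their histones with transition proteins and then with protamines, small arginine-rich proteins that pack the DNA tightly. Transcription stops at that step, so the RNA of mature sperm is regarded as a remnant of the spermatid, together with RNA gained later. The epididymis is a coiled tube of epithelium (secretory principal cells, acidifying clear cells and basal cells) in a sheath of smooth muscle and connective tissue.

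Each value is a deposited log2 intensity, so 1 unit is a 2-fold step, and each difference below is the mean of the 6 sperm arrays minus the mean of the 2 epididymis arrays, with its standard error. A gene is called higher or lower where limma's test, with Benjamini-Hochberg adjustment over 13587 genes, gave an adjusted p under 0.05. Levels of different genes are not set against each other, because probes differ in brightness. In whole tissue, fewer cells of a type and less RNA per cell cannot be told apart.

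The labelled tissues were first set against their defining markers. Prm1, which encodes protamine 1, ran from 9.88 to 11.44 in sperm with a median of 10.74, and stood at 6.57 in control epididymis and 6.78 in low protein epididymis. Tnp2, transition protein 2, had a lowest value of 10.15, a median of 10.98 and a highest value of 11.75 in sperm, against 6.44 and 6.58 in control and low protein epididymis. Gapdhs, the sperm form of the glycolytic enzyme GAPDH, had 9.90, 10.39 and 11.15 in sperm and 6.23 and 6.52 in epididymis in the same order. Sperm and epididymis did not overlap for any of these genes, and the sperm levels were 16.3-fold, 21.7-fold and 17.2-fold higher (differences of 4.03 ± 0.32, 4.44 ± 0.33 and 4.11 ± 0.36, limma adjusted p of 4.78e-05, 3.83e-05 and 7.05e-05).

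The epididymal markers ran the other way. Myh11, smooth muscle myosin heavy chain, ran from 7.09 to 8.13 in sperm with a median of 7.89, and stood at 11.79 in control and 11.77 in low protein epididymis. Acta2, smooth muscle actin, spread more widely in sperm, with 6.92, 9.29 and 9.81 as its lowest, median and highest values, against 12.66 and 12.70 in control and low protein epididymis. Krt5, a keratin of basal cells, had 5.91, 6.30 and 6.43 in sperm and 8.57 and 8.50 in epididymis. Every sperm value lay below both epididymis values for these markers. Sperm preparations with detectable Myh11 in qRT-PCR had been rejected, so a low Myh11 in the sperm kept was partly selected for in advance. The same holds for Acta2 as far as both come from the same smooth muscle cells. The differences were -4.03 ± 0.25 for Myh11, -3.73 ± 0.63 for Acta2 and -2.29 ± 0.17 for Krt5, with limma adjusted p of 1.64e-05, 0.00169 and 3.47e-05. Actb, the cytoplasmic actin also used in the screen and so likewise partly selected for low values, was 2.58-fold lower in sperm, a smaller step. It had 10.49, 11.35 and 11.61 in sperm against 12.67 and 12.50 in control and low protein epididymis (difference -1.37 ± 0.27, limma adjusted p = 0.00331). Without the control epididymis array the Actb difference was -1.28 with an adjusted p of 0.0508.

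**Figure D1:**
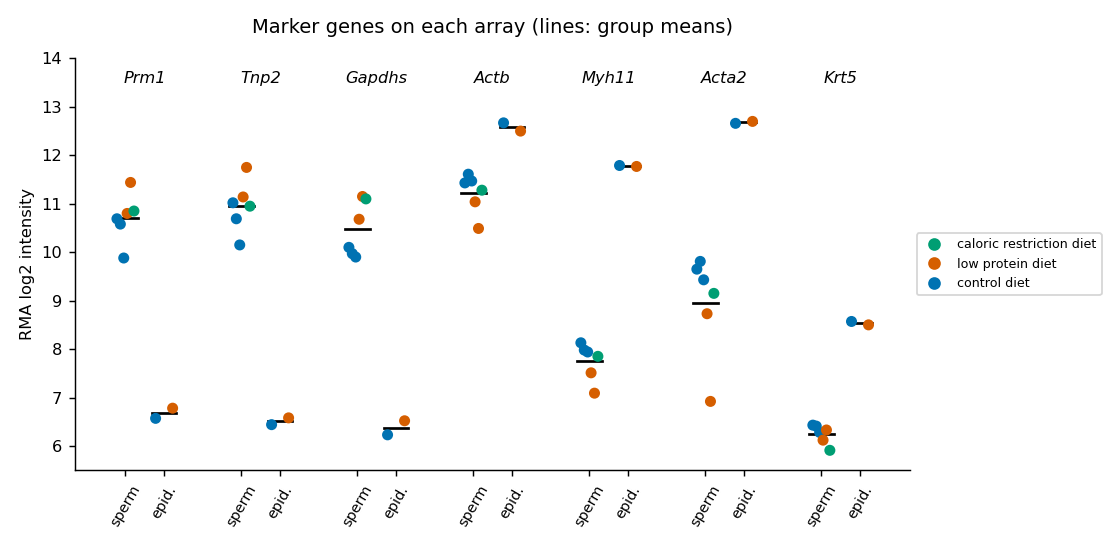
Log2 intensity of 3 sperm markers, 3 epididymal markers and Actb in each array, with sperm left of epididymis; each dot is 1 array and the short lines are group means. Prm1, Tnp2 and Gapdhs lie above both epididymis values in every sperm array, and Myh11, Acta2, Krt5 and Actb lie below both.

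Of the 13587 genes tested, 5814 (42.8%) differed between sperm and epididymis: 2139 (15.7%) were higher and 3675 (27.0%) lower in sperm. With a filter that weights the tissues equally, 1973 genes were higher and 3861 lower. The sperm and epididymis values did not overlap for 8202 genes (60.4%), of which 3363 were higher and 4839 lower. The large differences leaned the other way from the counts: at a size of 2 or more, 422 called genes were higher and 176 lower, and at 3 or more 113 were higher and 15 lower. Higher genes made up 36.8% of the calls, 45.3% after quantile normalization and 50.6% after cyclic loess, while the median difference over all genes was -0.08, 0.01 and 0.05 in these settings. The count rests on both epididymis arrays: 2064 genes were called without the control epididymis array and 2457 without the low protein epididymis array.

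The largest rises were in germ cell genes of several roles. Gtsf1, a zinc finger protein of the piRNA pathway that silences transposons in germ cells, had 10.08, 10.68 and 11.66 as its lowest, median and highest values in sperm, against 5.76 in control and 5.74 in low protein epididymis. That is a difference of 5.02 ± 0.34, or 32.5-fold (limma adjusted p = 1.89e-05). Fabp9, a fatty acid binding protein of germ cells, was higher by 4.46 ± 0.43, and Phospho1, a phosphatase known from mineralizing bone, by 4.39 ± 0.33. Spz1, a spermatogenic transcription factor, was higher by 4.30 ± 0.34. Spem1, needed in the mouse for removal of the spermatid's cytoplasm, had 9.06, 9.49 and 10.19 in sperm and 5.44 and 5.16 in control and low protein epididymis, a difference of 4.23 ± 0.27, and its neighbour in name Spem2 was higher by 4.15 ± 0.34. Dbil5, a testis relative of the diazepam binding inhibitor, was higher by 4.23 ± 0.44. Itpr3os, listed as an opposite-strand transcript at Itpr3, was higher by 4.76 ± 0.39. These genes were picked among called genes whose sperm and epididymis values do not overlap. That the lowest sperm array stood above both epididymis arrays in each was thus a condition of the choice.

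All 9 chromatin packaging genes tested were higher in sperm, with a median difference of 2.41. Over all genes tested 15.7% were higher, and the median was -0.08. After Tnp2 and Prm1 came Prm2, protamine 2, with 12.46, 12.99 and 13.43 in sperm against 9.08 and 9.20 in control and low protein epididymis (difference 3.87 ± 0.25, limma adjusted p = 1.82e-05). Hils1, a linker histone-like protein of spermatids, was higher by 2.49 ± 0.31, Tnp1, transition protein 1, by 2.41 ± 0.38, and H2bl1, a testis H2B variant, by 2.39 ± 0.35. Prm3 was higher by 2.20 ± 0.32 and H1f7, a spermatid linker histone, by 1.71 ± 0.29. The smallest difference was that of H1f6, a linker histone that appears before the spermatid stage, at 0.73 ± 0.19, and it was 0.55 with a limma adjusted p of 0.162 without the control epididymis array.

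The genes Prm1, Prm2, Prm3 and Tnp2 are neighbours on chromosome 16, with their start sites within 8.2 kb, and all 4 are read from the minus strand. Their upstream sequences are shown because these neighbours differed together between sperm and epididymis. Each run below is the 120 bases before the start site, 5′ to 3′ on the gene's own strand, from the RefSeq promoter table of GRCm38.p6, and capitals mark TATAA on either strand, which reads TTATA where it lies on the opposite strand.
Prm1, chr16:10796824-10796943: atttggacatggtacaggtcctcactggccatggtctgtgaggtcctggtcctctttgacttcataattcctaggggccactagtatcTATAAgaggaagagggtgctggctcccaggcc
Prm2, chr16:10792106-10792225: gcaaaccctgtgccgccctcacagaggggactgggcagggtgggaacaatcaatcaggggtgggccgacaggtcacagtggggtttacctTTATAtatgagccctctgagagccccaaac
Prm3, chr16:10790915-10791034: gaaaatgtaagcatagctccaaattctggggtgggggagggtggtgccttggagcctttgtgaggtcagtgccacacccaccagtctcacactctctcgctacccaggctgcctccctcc
Tnp2, chr16:10788656-10788775: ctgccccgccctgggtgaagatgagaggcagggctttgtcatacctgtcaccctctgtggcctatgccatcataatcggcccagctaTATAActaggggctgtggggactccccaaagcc
The motif, the core of a TATA box, begins 32 bases before the start in Prm1, 30 in Prm2 and 33 in Tnp2, so 3 of the 4 windows hold it, against 11.8% of the 32851 promoters of the table in the same window. The window of Prm3, the member of the 4 with the smallest difference (2.20), holds no TATAA. A match describes these letters and is not a measured binding site.

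The lists of tail genes, 1 of which also holds other sperm genes, were higher in sperm almost as a body. The array held 23 genes listed under the outer dense fibres and fibrous sheath, the stiffening structures around the sperm tail. Of the 22 that passed the filter 20 (90.9%) were higher and none lower, with a median difference of 1.90. Over all genes tested 15.7% were higher and 27.0% lower. Akap4, the main protein of the fibrous sheath and an anchor for protein kinase A, had 8.43, 8.92 and 9.78 in sperm and 5.34 and 5.38 in control and low protein epididymis, a difference of 3.69 ± 0.36, and Odf2, an outer dense fibre protein, by 3.29 ± 0.31. The list also holds genes that are not structural parts of these fibres, among them Spata18, a mitochondrial quality control protein, with its largest difference (4.06 ± 0.31), and Oaz3, the germ cell antizyme (3.67 ± 0.35). Others are the sperm head genes Cylc2, Actl7a, Actl7b and Capza3, the septins Septin4 and Septin12 and the kinase Tssk4. The counts and the median are those of this mixed list. Odf1, another outer dense fibre protein, was 13.2 in sperm and 10.4 in epididymis on average (difference 2.78 ± 0.18). Tssk4 and Septin4 did not pass the test. The array held 43 genes of the axoneme, the microtubule core that bends the tail. Of the 41 that passed the filter 38 (92.7%) were higher and none was lower, and the median difference was again 1.90. Spag16, a protein of the central pair, had 6.71, 7.61 and 8.58 in sperm and 3.98 and 4.53 in control and low protein epididymis (difference 3.37 ± 0.43). The dynein heavy chains, the motors of the axoneme, did not all behave alike: Dnah7a was higher by 3.18 ± 0.55 and Dnah8 by 3.07 ± 0.40, while Dnah3 (0.95), Dnah9 (-0.04) and Dnah11 (-0.34) did not pass the test. Dnah7a has near-identical copies, so its probes may also catch their transcripts. With the control epididymis array left out, 13 genes of the outer dense fibre and fibrous sheath list and 16 of the axoneme list were called higher. Without the low protein epididymis array they were 12 and 16. Adgb, an androglobin of the tail with a difference of 3.38 ± 0.67, was 2.98 with a limma adjusted p of 0.0541 without the low protein epididymis array.

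Genes for meeting the egg were higher by less. The array held 37 genes of egg binding and of the acrosome, the vesicle that opens at fertilization. Of the 29 that passed the filter 27 (93.1%) were higher and none lower, beside 15.7% and 27.0% over all genes tested. The median difference was 1.52. Some passed through their sperm values, such as Spaca7 (6.64 in sperm and 4.19 in epididymis on average). Adam5, Adam2 and Adam3 encode membrane proteins of the sperm surface, and the mouse needs Adam2 and Adam3 for sperm migration through the oviduct. They were higher by 2.94 ± 0.39, 2.75 ± 0.43 and 2.46 ± 0.39. Adam5 had 7.37, 7.95 and 8.94 in sperm against 5.17 and 5.03 in control and low protein epididymis. Spaca6 (0.29) and Izumo4 (0.54) did not pass the test. Leaving out an epididymis array leaves 1 array in that group and so less power to call a gene. The median was 1.57 without the control and 1.43 without the low protein epididymis array, and fewer genes were called. Acr, which encodes the acrosomal protease acrosin, was 1.19 ± 0.43 with all arrays and lost its call without either epididymis array, at 1.29 and 1.10 (limma adjusted p of 0.163 and 0.213), and also without control sperm 1 (1.27, 0.0565) or low protein sperm 1 (1.20, 0.0746).

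The array held 27 genes of capacitation, ion channels and signalling, which switch on motility in the female tract. Of the 23 that passed the filter 19 (82.6%) were higher and 1 (4.35%) lower, beside 15.7% and 27.0% over all genes tested. The median difference was 1.82. The kinases Tssk3 and Tssk6, restricted to spermatids, were higher by 3.33 ± 0.33 and 3.31 ± 0.38. Adcy10, the bicarbonate-sensing adenylyl cyclase of sperm, had 6.91, 7.59 and 8.51 in sperm and 4.42 and 4.44 in control and low protein epididymis (difference 3.26 ± 0.43). Catsperz, a subunit of the sperm calcium channel CatSper, was higher by 2.86 ± 0.42, Atp1a4, the sperm sodium pump, by 2.85 ± 0.34, and Plcz1, the egg-activating phospholipase, by 2.70 ± 0.49. The lower gene was Ppp1cc, a phosphatase catalytic subunit (-0.65 ± 0.23, limma adjusted p = 0.046). It lost its call without any 1 of 5 arrays, with -0.61 (control sperm 1), -0.66 (low protein sperm 1), -0.67 (control sperm 3), -0.61 (control epididymis) and -0.70 (low protein epididymis). Of this list 10 genes were called higher without the control epididymis array and 12 without the low protein epididymis array.

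A further 31 genes of late spermatids, of 34 on the array, gave the highest median difference of the germ cell lists, 2.65. Of them 29 (93.55%) were higher and none lower, beside 15.7% and 27.0% over all genes tested. The list was chosen with earlier results of these data known. It holds Fabp9, Spz1, Spem1, Spem2 and Dbil5, named above among the largest rises, so its rank is partly set by that choice. Crisp2, a cysteine-rich protein of the acrosome and tail, was 11.4 in sperm and 7.57 in epididymis on average (difference 3.86 ± 0.28), and Smcp, a protein of the mitochondrial sheath, was higher by 2.86 ± 0.20. Of the 31, 25 were called higher without the control epididymis array and 25 without the low protein epididymis array.

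Meiosis, piRNA pathway and spermatogonial genes had smaller median differences than the late spermatid list. Of 12 meiosis genes that passed the filter on dim genes, out of 26 on the array, 9 (75%) were higher and none lower. Their median was 1.10. Some of the 12 passed through their sperm values, such as Smc1b (6.35 in sperm and 4.69 in epididymis on average). The count and the median are therefore partly set by the filter. Syce2 and Syce1, parts of the synaptonemal complex that joins paired chromosomes, were higher by 2.85 ± 0.38 and 2.60 ± 0.43. Of 22 piRNA pathway genes on the array, 17 passed the filter. Of these 12 (70.6%) were higher and none lower, with a median of 1.43. Besides Gtsf1, Mael was higher by 2.97 ± 0.50, Ddx4, the germ cell RNA helicase, by 2.86 ± 0.48 and Piwil1, a piRNA-binding protein of spermatids, by 1.56 ± 0.26. Tdrkh, a tudor protein of the same pathway, overlapped between sperm and epididymis (-0.07 ± 0.15). Spermatogonia, the stem and early germ cells, had 18 listed genes on the array, of which 11 passed the filter. Their median was 0.31, with 3 (27.3%) higher and 2 (18.2%) lower. Over all genes tested these shares were 15.7% and 27.0%. Id4, a marker of mouse spermatogonial stem cells that other tissues also use, was among the lower ones, with 6.61, 6.94 and 7.25 in sperm against 8.30 and 8.27 in control and low protein epididymis (difference -1.35 ± 0.19, limma adjusted p = 0.000644). Without the control epididymis array 3 meiosis genes and 8 piRNA pathway genes were called higher, and without the low protein epididymis array 2 and 7. In neither setting was a spermatogonial gene called higher, and 1 was called lower, while quantile normalization gave 1 higher.

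**Figure D2:**
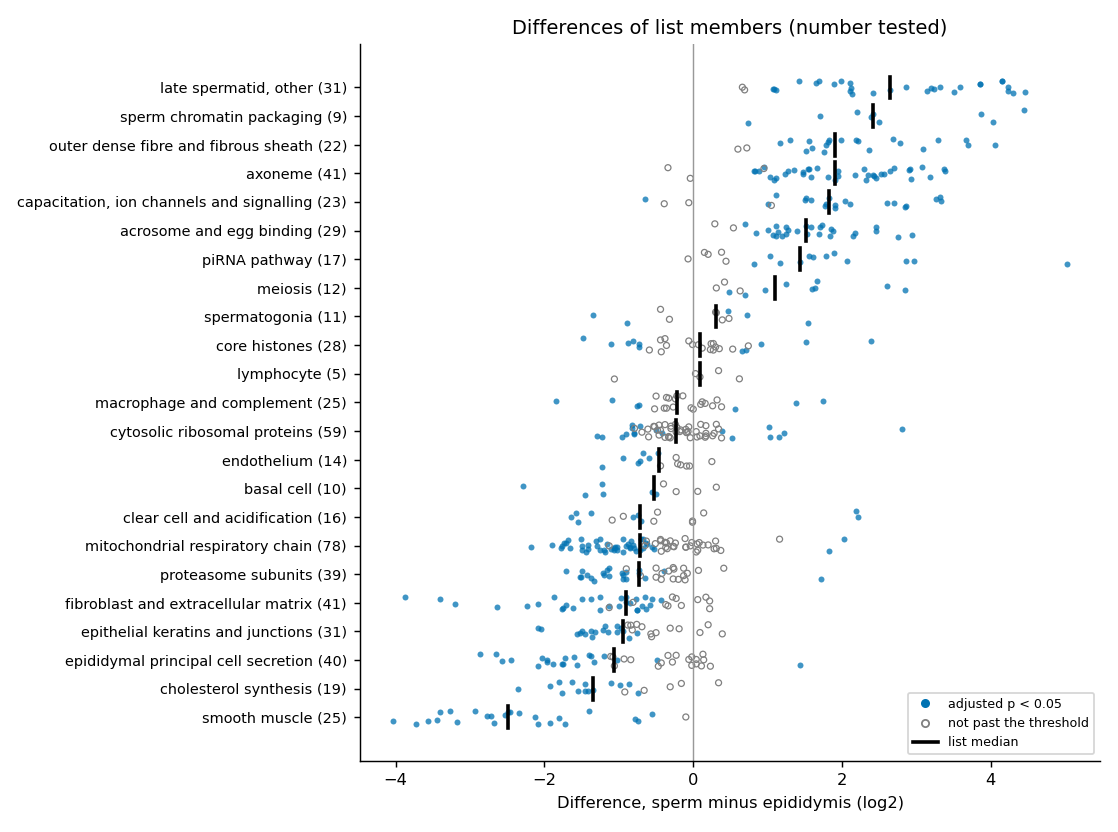
Sperm minus epididymis differences (log2) of the tested members of 23 gene lists, 1 dot per gene; blue dots passed the limma threshold, open grey dots did not, and the black mark is the list median. Late spermatid (median 2.65) and chromatin packaging genes (2.41) lie farthest to the higher side and smooth muscle genes (-2.49) farthest to the lower side. The lists were chosen with earlier results of these data known.

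Germ cells carry their own versions of many housekeeping enzymes, often from a retrocopied or duplicated gene. Of 29 such pairs listed, 19 had both genes tested. In 11 of them the germ cell gene was higher and the somatic gene lower in sperm. In all, 16 germ cell genes were higher, and 13 somatic genes were lower and none higher. Over all genes tested 15.7% were higher and 27.0% lower. Pairs fell out where either gene was not tested, and the filter leans to sperm values, so the tally is partly set by it. The median difference was 1.98 over the germ cell genes and -0.92 over their somatic partners.

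Pairs of glycolytic enzymes differed in opposite directions. Pgk2, the germ cell phosphoglycerate kinase, had 9.90, 10.50 and 11.45 in sperm and 6.79 and 6.68 in control and low protein epididymis (difference 3.81 ± 0.36). Its somatic partner Pgk1 had 7.06, 8.23 and 8.62 in sperm and 9.83 and 9.75 in epididymis (difference -1.71 ± 0.37). Ldhc, the germ cell lactate dehydrogenase, was higher by 3.41 ± 0.42, and Ldha was -0.92 ± 0.20. Aldoart1, a germ cell aldolase, was 0.89 ± 0.32, and Aldoa was -0.80 ± 0.17. Of the glucose transporters, Slc2a3, the transporter of sperm, did not pass the test (-0.41 ± 0.22), and Slc2a1, that of most tissues, was lower by 1.59 on the log2 scale (-1.59 ± 0.20).

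Pairs of folding and cytoskeletal genes separated as well. Clgn, a germ cell chaperone of the endoplasmic reticulum, was higher by 2.53 ± 0.38, and its somatic partner Canx was -1.74 ± 0.39. Cct6b, a testis subunit of the chaperonin ring, was higher by 2.45 ± 0.38, and Cct6a was -1.58 ± 0.33. Tuba3a, a testis alpha tubulin whose near-identical copy may share its probes, was higher by 2.12 ± 0.37, and Tuba1a was lower (-1.33 ± 0.23). Hspa1l, the germ cell heat shock protein, was higher by 1.98 ± 0.33, and Hspa8 was -1.72 ± 0.42. Cstf2t, the germ cell form of a polyadenylation factor, was lower with all arrays (-0.52 ± 0.15), and its somatic partner Cstf2 overlapped between the tissues (0.09 ± 0.17).

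The pair counts fell when an epididymis array was left out, which leaves 1 array in that group and less power to call a gene. Without the control epididymis array 1 pair, and without the low protein epididymis array 4 pairs, had the germ cell gene called higher and the somatic gene called lower, with 11 and 12 germ cell genes called higher and 4 and 7 somatic genes called lower. Of the pair genes described here, those that lost their call without the control epididymis array were Pgk1 (-1.66, limma adjusted p = 0.0595), Ldha (-0.93, 0.0589), Aldoa (-0.77, 0.069), Aldoart1 (1.03, 0.139), Canx (-1.76, 0.0598), Cct6a (-1.59, 0.0525) and Hspa8 (-1.69, 0.0809). Of the other pair genes, Rpl10l (1.14), Cox8c (1.91), Cox6b1 (-0.79), Cox7b (-1.14), Ppp3cc (1.00), Cetn1 (0.88) and Actb (-1.28) lost theirs in the same setting. Without the low protein epididymis array, Ldha (-0.91, 0.0566), Aldoart1 (0.75, 0.248), Canx (-1.72, 0.0593), Hspa8 (-1.74, 0.0695) and Cstf2t (-0.34, 0.226) lost theirs, as did Rpl10l (1.30), Cox6b1 (-0.91), Cox7b (-0.97), Ppp3cc (1.01), Ppp3ca (-0.71) and Cetn1 (1.16). Aldoart1 also lost it without control sperm 1 (0.90), low protein sperm 1 (0.85) or caloric restriction sperm (0.84).

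**Figure D3:**
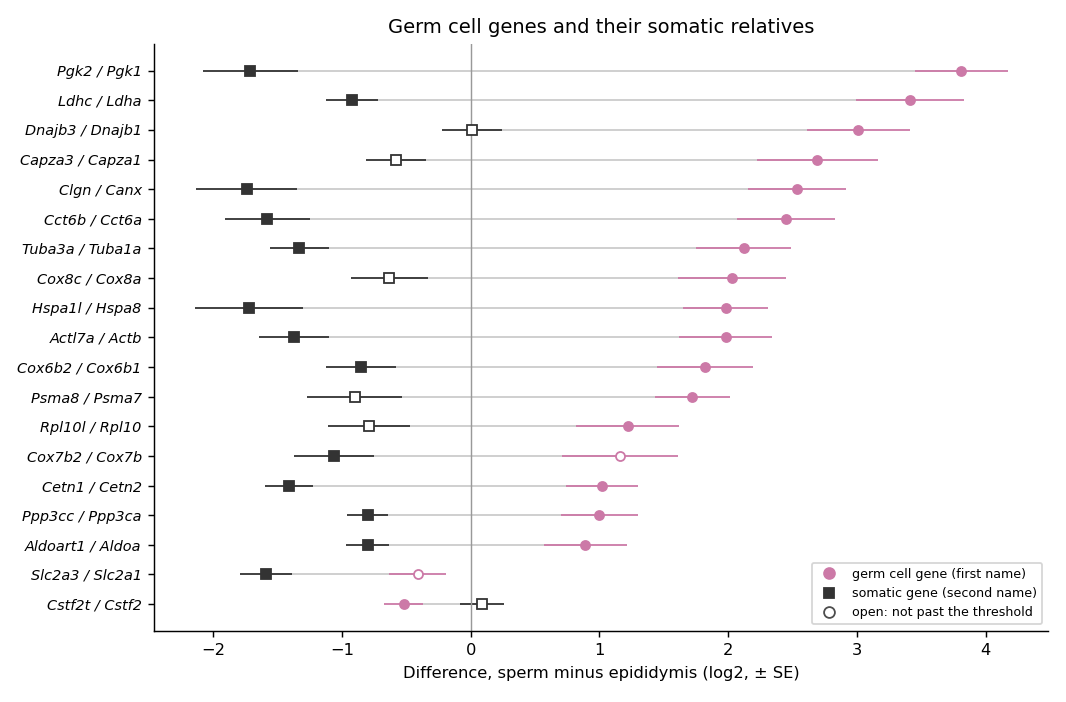
Sperm minus epididymis difference (log2, with its standard error) of the germ cell gene and the somatic gene of each of the 19 pairs with both genes tested. The germ cell genes lie to the right of 0 apart from Cstf2t (-0.52) and Slc2a3 (-0.41), and 13 of the somatic genes were called lower.

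Smooth muscle genes had the lowest median difference of the lists. Of 25 smooth muscle genes tested, 24 (96%) were lower in sperm, beside 27.0% over all genes tested, with a median difference of -2.49. The list includes Myh11, a gene of the screen that the sperm preparations had to pass. Low smooth muscle values in sperm, and so the rank of this list, were partly selected for in advance. The mean level of the list ran from 6.77 to 7.49 over the sperm arrays and was 9.56 and 9.58 in the epididymis arrays. Cnn1, calponin, had 6.41, 6.69 and 7.03 in sperm against 10.18 and 10.33 in control and low protein epididymis (difference -3.56 ± 0.18, 11.8-fold lower, limma adjusted p = 7.98e-06). Cald1, caldesmon, was lower (-3.41 ± 0.28), as were Pgm5, a phosphoglucomutase relative at muscle attachments (-3.27 ± 0.19), and Des, the muscle intermediate filament desmin (-3.18 ± 0.17). Myl9, a myosin light chain, varied more in sperm, with 6.30, 7.55 and 8.17 against 10.97 and 10.82 in control and low protein epididymis (-3.44 ± 0.41). Ldb3, a protein of striated muscle discs, did not pass the test (-0.10 ± 0.19). Without either epididymis array 22 of the 25 genes were called lower.

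Connective tissue genes were lower too, by less as a list. Of 41 fibroblast and matrix genes 30 (73.2%) were lower and none higher, beside 27.0% and 15.7% over all genes tested. The median was -0.90. The mean level of the list was between 7.03 and 7.30 in sperm, against 8.16 and 8.34 in epididymis. Sparcl1, a matrix glycoprotein, had 6.42, 6.75 and 7.13 in sperm and 10.61 and 10.68 in control and low protein epididymis, a difference of -3.87 ± 0.21 (14.6-fold lower, limma adjusted p = 8.57e-06). Timp3, an inhibitor of matrix proteases, was lower (-3.40 ± 0.19), as were Igfbp7 (-3.20 ± 0.16), Postn, periostin (-2.64 ± 0.17), and Dcn, the proteoglycan decorin (-2.09 ± 0.17). Collagens did not all differ: Col1a1 was 9.70 in sperm and 9.64 in epididymis on average (0.06 ± 0.32), and Col5a1 was 0.22 ± 0.16, so neither passed the test. Outside the lists, Cpe, a carboxypeptidase of peptide processing, was among the largest falls (-3.58 ± 0.19), as were the membrane protein gene Tmem47 (-3.15 ± 0.17), the fibril-associated collagen gene Col12a1 (-3.09 ± 0.16) and the sodium and calcium exchanger gene Slc24a3 (-3.10 ± 0.18). Of the fibroblast and matrix genes 18 were called lower without the control epididymis array and 23 without the low protein epididymis array.

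The secretory products of principal cells were lower, with a wide spread between genes. Of 68 on the array, 40 passed the filter. Of these 20 (50%) were lower and 1 (2.5%) was higher, beside 27.0% and 15.7% over all genes tested, with a median of -1.07. After quantile normalization and cyclic loess the median was -0.72 and -0.63. Pate2, a small secreted cysteine-rich protein, had 4.75, 5.37 and 6.11 in sperm against 8.22 and 8.24 in control and low protein epididymis (difference -2.86 ± 0.35, limma adjusted p = 0.000378). Lcn2, a lipocalin, was lower (-2.65 ± 0.30), as were the beta-defensin Defb39 (-2.57 ± 0.35), Pate1 (-2.45 ± 0.40), Defb1 (-2.09 ± 0.29) and the protease inhibitor Cst3 (-2.03 ± 0.21). Genes of this list were also bright in the sperm arrays: Ces5a, a carboxylesterase secreted into the lumen, averaged 11.6 in sperm and 13.2 in epididymis, Spink8, a protease inhibitor, 11.3 and 12.4, and Lcn12, a lipocalin, 9.80 and 10.9. Of these Ces5a passed the test (-1.60 ± 0.40), while Spink8 (-1.11 ± 0.44) and Lcn12 (-1.08 ± 0.47) did not. The member higher in sperm was Wfdc15a (1.43 ± 0.42). Of the members 9 were called lower without the control epididymis array and 10 without the low protein epididymis array, and in neither setting was any called higher (Wfdc15a 1.29 and 1.56, limma adjusted p of 0.157 and 0.0926); Ces5a was -1.64 and -1.56 in these settings (0.076 and 0.0794).

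Several secretory genes of the upper epididymis were dim in both tissues. The lipocalins Lcn5, Lcn6, Lcn8, Lcn9 and Lcn10 lay between 4.69 and 5.78 in sperm and between 4.73 and 5.22 in epididymis. Ros1, a receptor kinase of the mouse initial segment, lay between 5.27 and 5.63 in sperm and at 5.57 and 5.54 in epididymis, and Rnase10 between 3.20 and 4.02 in sperm and at 3.68 and 3.82 in epididymis. All of these are below or near the level of 5.69 that the filter left out, and no detection calls were used. Crisp4, another gene left out because the filter averages over 8 arrays of which 6 are sperm, lay between 4.26 and 5.52 in sperm and at 7.08 and 6.79 in control and low protein epididymis. With a filter that weights the tissues equally it was lower (-2.21 ± 0.30, limma adjusted p = 0.000515). Other members of the secretory list were above the filter level in epididymis. Adam7 averaged 10.83 in sperm and 12.58 in epididymis (-1.75 ± 0.47), and Gpx5 5.66 and 7.04 (-1.38 ± 0.37), both called lower. Without the control epididymis array these differences were -1.84 and -1.18, and without the low protein one -1.66 and -1.58. Which stretch the tissue arrays hold was not tested.

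Clear cell, basal cell and junction genes also leaned lower. Of 16 clear cell and acidification genes 7 (43.75%) were lower and 2 (12.5%) higher, with a median of -0.72. Over all genes tested these shares were 27.0% and 15.7%. Atp6v1b2, a subunit of the proton pump, was lower (-1.58 ± 0.28). The higher genes were Car2, carbonic anhydrase 2, with 8.74, 9.35 and 10.03 in sperm and 7.19 and 7.12 in control and low protein epididymis (difference 2.21 ± 0.32, limma adjusted p = 0.000763), and Cftr, the chloride and bicarbonate channel (2.19 ± 0.47). Of 10 basal cell genes 6 (60%) were lower, with a median of -0.53, among them Krt14 (-1.45 ± 0.16) and Krt15 (-1.21 ± 0.22), partners of Krt5. Of 31 genes of epithelial keratins and junctions 18 (58.1%) were lower and none higher, with a median of -0.95. Cldn1 and Cldn3, tight junction claudins, were lower (-2.08 ± 0.19 and -1.52 ± 0.20), as was Epcam, an epithelial adhesion protein (-2.05 ± 0.29). The mean level of the keratin and junction list ran from 6.97 to 8.00 in sperm, against 8.48 and 8.56 in epididymis. When the control epididymis array was left out 2 clear cell, 4 basal cell and 10 keratin and junction genes were called lower, and without the low protein epididymis array 5, 4 and 13. Cftr was 2.25 and 2.13 in these settings, with limma adjusted p of 0.0523 and 0.0555. After quantile normalization and cyclic loess the medians were smaller in size, at -0.49 and -0.48 for clear cell, -0.48 and -0.48 for basal cell and -0.61 and -0.58 for keratin and junction genes.

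Blood vessel and immune cell genes gave smaller differences. Of 14 endothelial genes 7 (50%) were lower and none higher, with a median of -0.46. Among those tested Cd34 had the lowest difference (-1.22 ± 0.15). The filter left out 6 further endothelial genes, among them Emcn, endomucin, which lay between 3.97 and 4.52 in sperm and at 6.75 and 6.44 in control and low protein epididymis. Of 25 macrophage and complement genes 4 (16%) were lower and 3 (12%) higher, below the 27.0% and 15.7% over all genes tested, with a median of -0.22. C7, a complement component, was lower (-1.84 ± 0.26) and so was Ctss, a lysosomal protease of macrophages (-1.09 ± 0.20). Aif1, a calcium-binding protein of macrophages, was higher, with 6.76, 7.36 and 8.65 in sperm and 6.03 and 5.49 in control and low protein epididymis (1.75 ± 0.45). Lyz2, lysozyme, spread from 8.03 to 10.04 in sperm with a median of 9.52 and overlapped with 8.27 in control epididymis, while low protein epididymis had 7.49 (1.38 ± 0.47, limma adjusted p = 0.04). The mean level of the macrophage list lay between 6.79 and 7.27 in sperm and at 7.03 and 7.44 in epididymis, so the tissues overlapped. None of the 5 lymphocyte genes tested passed, at a median of 0.09, and the mean level of that list lay between 7.22 and 7.55 in sperm and between 7.36 and 7.43 in epididymis. That mean was raised by Cd52, which the epididymal epithelium also makes and which averaged 12.38 in sperm and 13.44 in epididymis. The next highest member, Cd3e, averaged 6.56 and 6.52. Without either epididymis array no macrophage gene was called higher (Aif1 2.02 and 1.48, Lyz2 1.77 and 0.98 without the control and the low protein array), and 1 and 3 endothelial genes were called lower. Lyz2 also lost its call without low protein sperm 1 (1.32), control sperm 3 (1.28) or caloric restriction sperm (1.22), and the median of the macrophage list was 0.01 after quantile normalization and 0.03 after cyclic loess.

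Cholesterol synthesis, respiratory chain and proteasome genes had negative medians in sperm against epididymis, at sizes that depended on the scaling. Of 19 cholesterol synthesis genes 14 (73.7%) were lower and none higher, with a median of -1.35. Over all genes tested 27.0% were lower and 15.7% higher. Msmo1, a sterol demethylating oxidase, had 7.70, 8.30 and 8.99 in sperm against 10.80 and 10.69 in control and low protein epididymis (difference -2.36 ± 0.31, limma adjusted p = 0.000492), and Sc5d and Cyp51, later and earlier steps of the same pathway, were lower (-1.92 ± 0.28 and -1.80 ± 0.32). Of 78 nuclear genes of the mitochondrial respiratory chain 45 (57.7%) were lower and 2 (2.56%) higher, with a median of -0.71. Ndufa4 was lower (-2.18 ± 0.37). The 2 higher ones were Cox8c (2.03 ± 0.42) and Cox6b2 (1.82 ± 0.37), testis forms of cytochrome c oxidase subunits. Of 39 proteasome genes 21 (53.85%) were lower, with a median of -0.73, and the 1 higher member was Psma8, the testis alpha subunit (1.72 ± 0.29). Leaving out the control epididymis array, 5 cholesterol, 23 respiratory chain and 12 proteasome genes were called lower, and without the low protein epididymis array 8, 23 and 13. Cox8c was 1.91 with a limma adjusted p of 0.0595 without the control epididymis array, which left 1 higher respiratory chain gene. After quantile normalization and cyclic loess the medians were -0.92 and -0.89 for cholesterol synthesis, -0.34 and -0.31 for the respiratory chain (29 and 33 genes lower) and -0.36 and -0.32 for the proteasome (14 and 17 lower).

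Heat shock, ribosomal and histone genes were called in both directions. Of 26 heat shock genes 12 (46.15%) were lower and 7 (26.92%) higher, beside 27.0% and 15.7% over all genes tested. Their median was -0.58, which was -0.31 after quantile normalization and -0.30 after cyclic loess. The small heat shock protein Hspb9 had 10.22, 10.71 and 11.44 in sperm and 6.52 and 6.86 in control and low protein epididymis (4.11 ± 0.33), and Dnajb8 and Dnajb3, co-chaperones, were higher by 3.15 ± 0.37 and 3.01 ± 0.40. Of 59 cytosolic ribosomal protein genes 11 (18.6%) were lower and 7 (11.9%) higher, shares below the 27.0% and 15.7% over all genes tested. Rpl39l, a retrocopy expressed in the testis, was higher by 2.80 ± 0.45, with 6.41, 7.10 and 8.30 in sperm against 4.35 and 4.56 in control and low protein epididymis. The median of the ribosomal list was -0.23 as deposited but 0.18 after quantile normalization (5 lower, 13 higher) and 0.24 after cyclic loess (8 lower, 19 higher), so no direction is given for it. Of 28 core histone genes 6 (21.4%) were lower and 5 (17.9%) higher, close to those shares, with a median of 0.09, and their near-identical copies may share probes; 3 were lower under either of these scalings. Without the control epididymis array 4 heat shock and 3 ribosomal genes were called lower, and 4 ribosomal and 1 histone genes higher, and without the low protein epididymis array 5, 3, 4 and 2; 2 histone genes were called lower in both settings.

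The sperm arrays did not stand equally far from the epididymis. Their correlation with the mean of the epididymis arrays across the tested genes was 0.72, 0.81 and 0.81 in control sperm 1, 2 and 3, 0.67 and 0.35 in low protein sperm 1 and 2, and 0.54 in caloric restriction sperm. Low protein sperm 2 had 1707 genes at least 1 above and 3292 at least 1 below the epididymis mean, and control sperm 3 had 731 and 1095. Among themselves the sperm arrays correlated at 0.71 to 0.98, and at 0.85 or more without low protein sperm 2. The epididymis arrays correlated at 0.99, with 9 genes differing by 1 or more between them.

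The axoneme median against the epididymis mean was 1.45, 1.36 and 1.20 in control sperm 1, 2 and 3, 2.14 and 2.32 in low protein sperm 1 and 2, and 2.89 in caloric restriction sperm, so it was highest in the caloric restriction array. The chromatin packaging median was instead highest in low protein sperm 2, at 3.19 against 2.74 in the caloric restriction array, and so were the meiosis median (1.76 and 1.44) and the piRNA pathway median (1.88 and 1.42). The principal cell secretion median was -0.96, -0.50 and -0.57 in the control arrays, -0.98 and -2.24 in the low protein arrays and -1.21 in the caloric restriction array, so low protein sperm 2 stood lowest. The smooth muscle median had a narrower span, with -2.25, -2.29 and -2.29 in the control arrays, -2.64 and -2.83 in the low protein arrays and -2.47 in the caloric restriction array. Members such as Cnn1 (6.41 to 7.03) and Tpm2 (6.29 to 6.74) were not far above the sperm array medians (6.10 to 6.17). Brighter members could spread more: Acta2 (6.92 to 9.81), Flna (7.39 to 9.49) and Csrp1 (7.72 to 9.60) were each lowest in low protein sperm 2. Actg2 spread less (7.92 to 8.53) and was not lowest there. The fibroblast median lay between -1.03 and -0.74. Control sperm 2 and 3, which stood nearest to the epididymis over all genes, had small distances in both the axoneme and the principal cell list. The part that leftover epididymal RNA, handling or diet has in these distances was not tested.

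**Figure D4:**
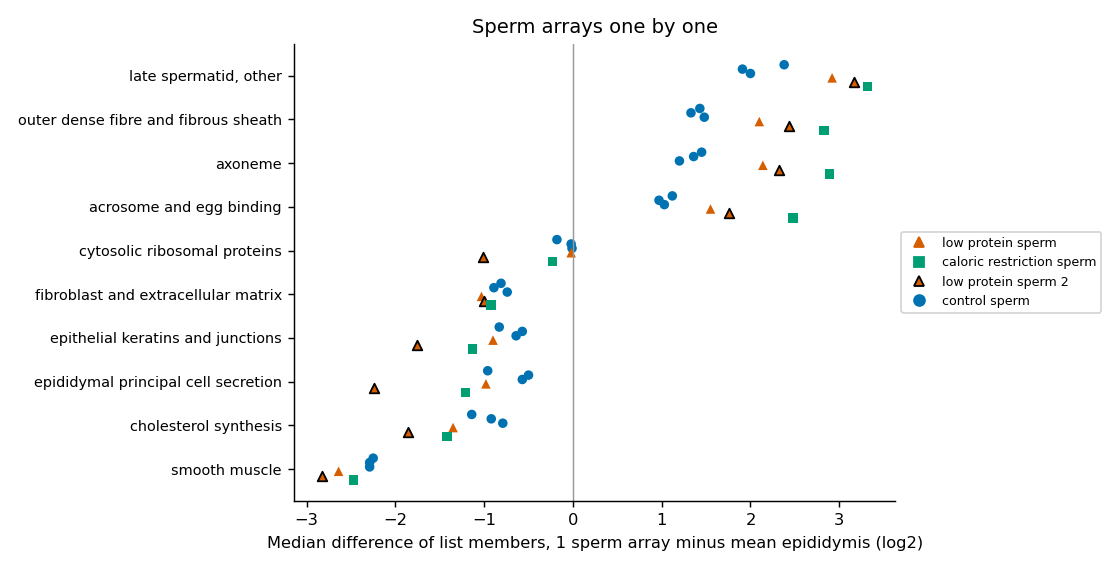
Median difference (log2) of each of 10 gene lists in each sperm array from the mean of the 2 epididymis arrays; each point is 1 sperm array, coloured by diet, and low protein sperm 2 is outlined in black. Smooth muscle medians lie between -2.83 and -2.25 in all sperm arrays, while axoneme medians span 1.20 to 2.89 and principal cell secretion medians -2.24 to -0.50. Single smooth muscle genes can spread more than the list median, such as Acta2, at 6.92 to 9.81 in sperm.

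The difference was also taken within each diet, where the low protein difference (2 sperm arrays, 1 epididymis array) and the control difference (3 sperm arrays, 1 epididymis array) share no array. They had the same sign for 11713 genes (86.2%) and correlated across genes at r = 0.93 and rho = 0.90, where genes are not independent replicates. Of the 2108 genes at 1 or more in size in both diets, all had the same sign in both. The differences were more widely spread in low protein samples, with an SD across genes of 1.08, than in control samples, with 0.78. The axoneme median was 2.19 in low protein and 1.22 in control samples, the acrosome median 1.76 and 1.01, and the principal cell secretion median -1.49 and -0.66. Smooth muscle medians were -2.72 and -2.31. With 1 epididymis array per diet, whether the diets differ in these medians was not tested.

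A set of genes gave the same signal in both tissues as closely as these arrays can show. The 95% interval of the difference lay within -0.5 to 0.5 for 1679 genes (12.4%). The 10 tightest around 0, each with both bounds within 0.30 of 0, were Bicd2, Cradd, Tmem132b, Tfcp2, Zfp251, 2310011J03Rik, Tom1, Wwc2, Gm3086 and Fbxo45. Bicd2, an adaptor of dynein-driven transport, had 6.84, 6.88 and 6.99 in sperm and 6.92 and 6.89 in control and low protein epididymis, with an interval of -0.28 to 0.28. Tfcp2, a widely expressed transcription factor, had 7.14, 7.19 and 7.26 in sperm and 7.15 and 7.26 in epididymis. The sperm means of the 10 ran from 5.71 (Gm3086) to 7.20 (Tfcp2), not far above the filter level of 5.69. Without detection calls, background signal in both tissues cannot be told from equal transcript levels. The intervals hold for the deposited scale, on which all arrays have nearly one median (6.08 to 6.17), so a difference in total RNA per cell would not show.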

How the data were processed

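Total RNA of 6 sperm and 2 epididymis samples was hybridized to Affymetrix gene arrays, 1 array per sample. The authors deposited log2 intensities from RMA, a step credited to the submitters' processing notes. The RMA version and the genome build were not given in the sources used here. No detection calls were used. The deposited log2 values span 1.17 to 14.53. Of 33660 probe sets, 21222 carried 1 gene by the platform annotation, 1541 several and 10897 none here. Symbols were updated through RefSeq for 21137 and kept for 85. For each gene the brightest probe set by mean was used, which gave 19411 genes, and the lowest 30% by mean over the 8 arrays (log2 5.69 and below) were left out.

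Tests used limma 3.58.1 in R 4.3.3 (lmFit and eBayes, two-sided) on sperm against epididymis without covariates, with Benjamini-Hochberg adjustment over 13587 genes. The fits were tested on simulated arrays. Since nothing in the labels says that replicates are separate animals, the p-values cover the spread between these arrays alone, and that spread may be technical. The number of arrays limits the precision. No 2 arrays held the same values.

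The gene lists, pairs and tests were chosen with earlier results of these data known. Named genes were up to 15 rises and 15 falls, the largest without overlap, the 10 intervals closest around 0, the 4 largest differences and the largest opposite one of each list, the pairs, the markers and Actb. Further list members were named after their values were seen. Alternatives were other normalizations, filters, probe set summaries, variance models, thresholds, a diet term, single diets and each array left out.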

Additional observations from a re-analysis of the deposited data

Results flagged for a closer look

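Over the 6 sperm arrays, 212 sets of values were examined for an array far from the others, and 16 stood apart; chance gives about 1 in 20. The caloric restriction array held the odd value of Adgb (10.18), Taf7l (7.76), Ldha (9.53) and H2az1 (8.39), all high, and of Lcn2 (6.64) and Slc2a4 (5.82), both low. Low protein sperm 2 stood low for Hspa8 (8.26), Canx (8.24), Ndufc2 (7.01), Psmc6 (5.94) and Ppp3r1 (5.45), and for the mean levels of the cytosolic ribosomal protein list (9.13) and the proteasome list (7.12). It stood high for Amh (6.43), the Sertoli cell hormone. Cldn1 was high in control sperm 3 (6.04) and Sox18 in control sperm 1 (6.55).

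For 4 named genes every sperm array lay on one side of its own diet's epididymis in low protein samples and on the other side in control samples, which was not tested. The low protein and control differences were 0.13 and -0.20 for Dnajb1, 0.09 and -0.06 for Bicd2, -0.07 and 0.04 for Cradd and -0.09 and 0.08 for Tmem132b. Bicd2, Cradd and Tmem132b were named because their intervals lay closest around 0, so small differences of opposite sign are partly set by that choice.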

How the results depend on the processing

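The epididymis has 2 arrays, and most of the counts rest on both. Leaving out either one leaves 1 array in that group, so calls can be lost there through less power as well as through a changed difference. With 1 array left out at a time, the genes past the threshold ranged from 2064 to 6470, those higher in sperm from 631 to 2351 and those lower from 1433 to 4119. The low protein arrays alone gave 3379 (1199 higher, 2180 lower), an adjusted p under 0.01 gave 3215 (1030 and 2185) and a change of at least 1 gave 2938 (1100 and 1838). The other alternatives gave between 4593 (quantile normalization) and 6594 (a diet term), within 1.5 times of 5814. Among values of named genes, 3271 kept direction and side of the threshold, 112 lost the call, 42 gained one and 11 turned sign. The turns were in differences near 0: Pnpla2 (0.03 by quantile normalization and 0.11 by cyclic loess), Slc2a3 (0.03 by cyclic loess), Cstf2 (-0.06 in control arrays) and Dnajb1 (-0.04 by median centring, -0.05 with a diet term, -0.20 in control arrays and -0.08 to -0.02 with an array left out). List medians turned in lists of mixed direction: spermatogonia (-0.38), lymphocytes (-0.52), fat (-0.13), nerve (-0.20) and core histones (-0.06) with a 50% filter, histones without a filter (-0.04), Sertoli and Leydig cells without the control epididymis array (-0.02), and macrophages in the low protein arrays (0.09). No paired analysis was possible because the labels give the arrays letters and no replicate numbers shared between sperm and epididymis.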

Other observations

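Other cell types that the tissues could hold gave few calls. Of 8 genes of Sertoli and Leydig cells, the support and hormone cells of the testis, none was higher and 1 was lower: Clu, clusterin, which the epididymis also makes, with 9.97, 10.74 and 11.15 as its lowest, median and highest values in sperm and 12.13 and 12.08 in control and low protein epididymis (difference -1.46 ± 0.29, limma adjusted p = 0.00337). That is 12.5% of the list, below the 27.0% lower over all genes tested, and the list median was 0.16. Of 7 fat cell genes, Lipe, hormone-sensitive lipase, was higher (1.67 ± 0.28, with 8.24, 8.72 and 9.35 in sperm against 7.10 and 7.08 in control and low protein epididymis), Slc2a4, the insulin-responsive glucose transporter, was lower (-1.32 ± 0.19), and the median was 0.13. Each is 14.3% of the fat cell list, beside 15.7% higher and 27.0% lower over all genes tested. Of 6 nerve and Schwann cell genes, Pmp22, a myelin protein also made by other cells, was lower (-1.57 ± 0.15) and the rest did not pass, at a list median of 0.19. The lower share of that list, 16.7%, was also below 27.0%. The 1 red blood cell gene tested, Slc4a1, did not pass (0.39 ± 0.17). Cd52, a glycoprotein of lymphocytes that the epididymal epithelium also makes, did not pass either (-1.06 ± 0.42), though every sperm array, at 11.08 to 13.08, lay below 13.53 in control and 13.36 in low protein epididymis. Genes encoded in the mitochondrial genome were not analysed here.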
